A study of Mus musculus with 24 samples.

Results

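Chromatin accessibility was examined at the sites that were lower in KLS cells of both knockouts of the study, Daxx-KO and DKO. The sites were chosen by their values. A site was taken from the table of Daxx-KO against Daxx-WT KLS cells when its Daxx-KO mean was below its Daxx-WT mean and when it overlapped, by at least 1 bp, a site of the DKO table with a DKO mean below the Daxx-WT mean. This gave 885 of 17311 sites, and they are called shared lower sites here. They overlapped 877 of the 14188 lower sites of the DKO table, which holds 50928 sites in all. Of the 14003 sites lower in Daxx-KO, 12312 overlapped no DKO site and 812 overlapped a DKO site that was higher. Of the shared lower sites, 6 overlapped a lower and a higher DKO site and are counted in both sets.

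The series holds 24 ATAC-seq libraries in 11 groups of sorted bone marrow cells from C57BL/6 mice. ATAC-seq reads mark DNA that the Tn5 transposase could reach. KLS cells (c-Kit+ Lin- Sca-1+), the population that holds stem cells and early multipotent progenitors, were sorted at 3 weeks post induction (w.p.i.) of Cre. They came from Daxx +/+ Cre +/- mice (Daxx-WT, 2 libraries), Daxx F/F Cre +/- mice (Daxx-KO, 3 libraries) and mice that were Cre +/- with F/F alleles of both Daxx and Pu.1 (DKO, 2 libraries). LT-HSCs (long-term haematopoietic stem cells) at 3 days post induction (d.p.i.) came from Daxx-WT (2 libraries) and Daxx-KO mice (3 libraries). The labels give both of these controls as Daxx +/+, whereas a legend of the study lists Daxx +/+ and Daxx +/F, so 1 control of this comparison may carry a floxed allele. LT-HSCs, CMPs (common myeloid progenitors) and GMPs (progenitors of granulocytes and monocytes) with no time in their labels came from Daxx-WT and Daxx-KO mice (2 libraries per group). All groups carried Cre, so the controls share it. Per the study's methods, the floxed Daxx line was C57BL/6N and the Cre lines were C57BL/6J. The groups of LT-HSCs, CMPs and GMPs whose labels give no time came from RosaCreER mice, in which tamoxifen induces deletion throughout the body. The methods place these groups at 3 weeks after tamoxifen. Their libraries were made and sequenced separately from the others. DKO mice carried Mx1Cre, which is induced by pI:pC, itself a trigger of interferon. The methods name RosaCreER for LT-HSCs of 3 d.p.i. as well, and the passage on ATAC-seq names no Cre line for the KLS cells. KLS cells are a mixture, so fewer cells of a type and lower accessibility per cell cannot be told apart in these libraries. In the Daxx-WT KLS peak list, the promoter of Kit had a peak and that of Ly6a, which encodes Sca-1, had none. Of markers of the lineages that the sort removes, Itgam had a promoter peak, and Ly6g, Cd3e, Itgax and Klrb1c had none.

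Daxx is a chaperone that deposits the histone variant H3.3, mainly at repeats and heterochromatin. Pu.1, encoded by Spi1, is a transcription factor that opens chromatin at myeloid and lymphoid enhancers. Open sites away from promoters are often enhancers, and many of them are used by stem cells and closed as progenitors commit to a lineage. Clusters of KRAB zinc finger genes and their pseudogenes, which arose by duplication, are another class of loci with open promoters, and many of their proteins silence retroelements.

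Among the shared lower sites with the strongest signal were copies of each other. The sequences are shown because they bear on how reads could be placed. Each is 120 bases of GRCm38 (mm10) around the summit of the Daxx-WT KLS peak of the first site named, or the matching bases of the other site, and capitals mark bases that differ from the first sequence of the group. The first pair holds the site over the start of Asap2, an Arf GTPase-activating protein, and a site over the starts of the processed pseudogene Gm16476 and of non-coding transcripts. They differed at 4 of 120 bases.
Asap2 start, chr12:20990387-20990506: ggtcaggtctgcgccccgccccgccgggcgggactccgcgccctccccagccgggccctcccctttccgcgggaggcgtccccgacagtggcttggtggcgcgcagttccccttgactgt
Gm16476 start, chr12:20614942-20615061: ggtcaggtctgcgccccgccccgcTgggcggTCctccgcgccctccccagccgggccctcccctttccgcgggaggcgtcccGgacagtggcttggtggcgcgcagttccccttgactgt
The second pair holds the site over the start of Zfp951, a zinc finger gene, and a site 63.4 kb from BC005561 on the opposite strand. They differed at 1 of 120 bases.
Zfp951 start, chr5:104860048-104860167: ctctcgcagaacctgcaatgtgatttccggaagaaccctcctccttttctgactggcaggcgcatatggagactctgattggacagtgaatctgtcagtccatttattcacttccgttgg
BC005561 site, chr5:104571543-104571662, reverse strand: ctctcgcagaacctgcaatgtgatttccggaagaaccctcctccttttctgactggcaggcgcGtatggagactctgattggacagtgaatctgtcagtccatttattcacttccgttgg
In the third group, the sites nearest to the zinc finger genes Zfp986 and Zfp993 were identical over the 120 bases, and the site nearest to Zfp982 differed from them at 9 bases.
Zfp986 site, chr4:145774513-145774632: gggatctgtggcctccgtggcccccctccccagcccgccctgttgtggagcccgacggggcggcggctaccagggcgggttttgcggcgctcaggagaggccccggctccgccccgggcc
Zfp982 site, chr4:147443262-147443381: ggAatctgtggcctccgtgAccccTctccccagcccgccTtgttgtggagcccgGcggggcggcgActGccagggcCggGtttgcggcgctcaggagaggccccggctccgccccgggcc

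Other shared lower sites lay at genes of stem cell maintenance and had no such copy. For 2 of them, chosen after their values were seen because they lie at stem cell genes, 200 bases around the summit of the Daxx-WT KLS peak are shown. Both stretches lie in the overlapping DKO site, beside the site of the Daxx-KO table. Capitals mark the motifs, which were searched on both strands with N as any base. They were GAGGAAGT for Pu.1, TGTGGT for the RUNX family, AGATAA for the GATA family, TGANTCA for the factors of the AP-1 family and TTGCNNAA for the C/EBP family. The core of the CTCF motif was searched as AGGGGGC and the E-box of the helix-loop-helix family as CAGCTG. The Mecom stretch held a Pu.1 and a RUNX motif and the Meis1 stretch an AP-1 motif.
Mecom intron, chr3:30330552-30330751: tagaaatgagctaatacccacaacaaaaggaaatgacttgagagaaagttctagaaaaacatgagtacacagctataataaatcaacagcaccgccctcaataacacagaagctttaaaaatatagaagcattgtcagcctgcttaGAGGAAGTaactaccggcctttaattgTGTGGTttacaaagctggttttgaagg
Meis1 intron, chr11:18948947-18949146: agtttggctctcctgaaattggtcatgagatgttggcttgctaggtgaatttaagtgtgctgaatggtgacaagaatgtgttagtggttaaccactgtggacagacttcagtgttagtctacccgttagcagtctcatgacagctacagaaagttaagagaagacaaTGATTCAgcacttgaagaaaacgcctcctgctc

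Values in the tables are scaled reads, that is, the reads of a library at a site divided by a normalization constant of that library. Log2 ratios are of group means after adding 1. Since the sites were chosen on these values, the values are a description with no test, and both comparisons use the same 2 Daxx-WT libraries. The libraries are numbered in the order of the tables. The shared lower sites were 600 to 3100 bp long (median 700 bp). In the Daxx-KO table, the 2 Daxx-WT libraries had medians of 51.1 and 49.3 scaled reads and the 3 Daxx-KO libraries of 26.7, 22.7 and 25.4. In the DKO table, where the overlapping site can be wider or shifted, the medians were 85.2 and 79 in Daxx-WT and 35 and 41.2 in DKO libraries. Thus all Daxx-KO and DKO medians were below the Daxx-WT medians of their table. At 884 of 885 sites every Daxx-KO library was below every Daxx-WT library, as at 99.9% of all sites lower in Daxx-KO. The exception was the site chr13:112114351-112115450, with no protein-coding gene start within 100 kb, where the Daxx-WT libraries had 139 and 66.5 and 1 Daxx-KO library had 74.6 scaled reads. At 885 of 885 sites every DKO library was below every Daxx-WT library, against 99.9% of all sites lower in DKO. These counts follow from the choice of the sites.

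The log2 ratio had a median of −1.0 in Daxx-KO (range −3.13 to −0.47) and of −1.10 in DKO (range −2.92 to −0.48). All sites lower in Daxx-KO had a median of −1.30, and all sites lower in DKO had −1.04. The mean in Daxx-WT was higher at the shared lower sites (median 50.1 scaled reads) than at all sites lower in Daxx-KO (median 29.4). The level was below 50% of Daxx-WT, on the scale with 1 added, in Daxx-KO at 444 sites, in DKO at 576 sites and in both at 349 sites. It was below 25% in both at 3 sites. Against the Daxx-WT mean, the median log2 ratio was −0.88, −1.09 and −0.96 in the Daxx-KO libraries and −1.19 and −1.03 in the DKO libraries, so the libraries of the 2 knockouts overlapped in this measure. The sizes depend on the scaling. With each library scaled to its mean number of reads per window of 600 bp, which ranged from 4.54 to 16 in KLS libraries, the medians were −0.46 in Daxx-KO and −1.78 in DKO, and 878 of the 885 sites stayed lower in both.

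**Figure D1:**
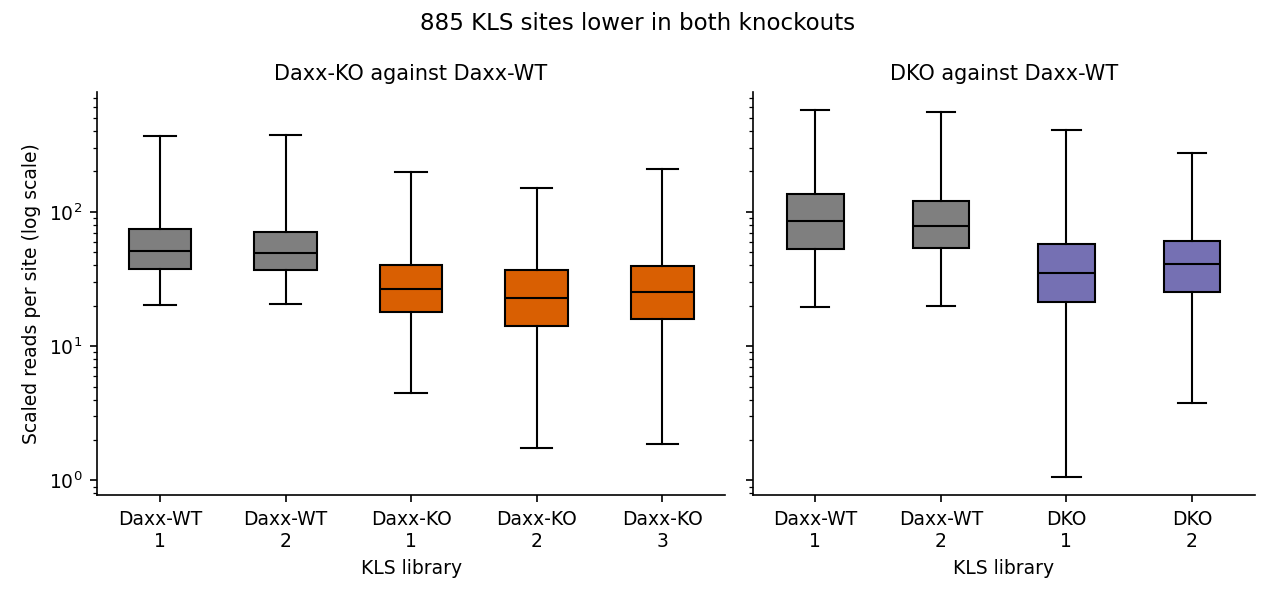
Scaled reads at the 885 shared lower sites in each KLS library, on a log axis, with the Daxx-KO table on the left and the DKO table on the right. Boxes span the quartiles with the median as a line and whiskers reach the lowest and highest site. The Daxx-WT medians lie between 49.3 and 85.2 and the knockout medians between 22.7 and 41.2.

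At the edge of the rule, the smallest fall in Daxx-KO was at an intronic site of Rab32 (chr10:10556901-10557650), a small GTPase of vesicle transport, with 78.1 scaled reads in Daxx-KO and 108 in Daxx-WT. The smallest fall in DKO was near Slc2a3 (chr6:122809851-122810700), a glucose transporter, with 339 scaled reads in DKO and 474 in Daxx-WT at the DKO site. Just outside the rule, a site near Ly6c2 (chr15:75086301-75087000) had a log2 ratio of −0.20 in Daxx-KO and 0.22 in DKO, and a site on chromosome 9 (chr9:60998951-60999550) had 0.42 in Daxx-KO and −0.63 in DKO. The overlap of a shared lower site with its DKO site was 50 bp at the least and under 100 bp at 31 sites, and 54 other sites lower in Daxx-KO lay within 100 bp of a lower DKO site without touching it.

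The targeted gene held 2 of the sites. Daxx exons 2 to 7 are deleted in both knockouts, and DNA that is no longer there gives no reads. The site over the promoter also covers DNA outside these exons. Loss of DNA and lower accessibility cannot be told apart at these sites, so they serve as a check of the genotype and are not read as its effect. The site over the promoter and first exons (chr17:33909601-33912700) had 54.6, 90.1 and 61.2 scaled reads in the Daxx-KO libraries and 255 and 295 in Daxx-WT. In the DKO table it had 97.6 and 74 in DKO and 263 and 302 in Daxx-WT. The site in the gene body (chr17:33913451-33914950) had 13.4, 7 and 9.41 in Daxx-KO, 6.36 and 8.43 in DKO, and 44.97 to 88.5 in Daxx-WT over both tables. No knockout library reached the lowest Daxx-WT library at either site. No shared lower site lay at Spi1.

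Besides Daxx, duplicated loci were among the sites with the largest values. A shared lower site counted as having a near-identical copy when at least 50% of it matched another place in GRCm38 at 90% identity or more. This held for 26 of 885 sites (2.94%), against 2.51% of all sites of the Daxx-KO table and 1.77% of Daxx-WT KLS peaks. Of the 26 sites, 25 were on chromosomes 4, 5, 12 and 17, and 5 were among the 10 sites with the highest Daxx-WT mean. Their median log2 ratio was −1.46 in Daxx-KO and −1.41 in DKO, against −0.99 and −1.09 for the other 859 sites. How the reads of such copies were placed is not given in the sources used here, so their values could be split between copies.

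On chromosome 12, the Asap2 start (chr12:20989601-20991500) had 36.7, 21.9 and 27.3 scaled reads in Daxx-KO against 194 and 203 in Daxx-WT, a log2 ratio of −2.75. In the DKO table it had 49.8 and 40.3 in DKO against 188 and 192, a log2 ratio of −2.05. Its copy at Gm16476 (chr12:20614451-20616000) had 15.6, 10.5 and 5.64 in Daxx-KO and 15.9 and 18.7 in DKO, with 81.2 to 101 in Daxx-WT. All knockout libraries were thus far below both Daxx-WT libraries at this pair. Another site of the chromosome lay over the starts of the pseudogenes Zfp125 and 3110053B16Rik (chr12:20919851-20921950), with 71.5 to 99.1 in Daxx-KO, 103 and 145 in DKO and 287 to 339 in Daxx-WT. Also on this chromosome, a site over the pseudogene Gm48398 (chr12:18609301-18611450), fell by 3.04 on the log2 scale in Daxx-KO, from 163 and 240 scaled reads to between 16.6 and 34.5, and its log2 ratio was −1.68 in DKO.

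On chromosome 4, 4 named sites lay in the zinc finger cluster. The site nearest to Zfp991 (chr4:147124251-147126650), over 2 pseudogene starts, had the highest Daxx-WT level of all shared lower sites, with 366 and 375 scaled reads. Its Daxx-KO libraries had 197, 106 and 158. In the DKO table it had 140 and 161 in DKO and 281 and 290 in Daxx-WT. The sites nearest to Zfp982, Zfp986 and at the start of Gm13212 had log2 ratios of −0.77, −1.29 and −1.52 in Daxx-KO and of −0.94, −1.26 and −0.98 in DKO. The falls at these 4 sites were smaller than those at the chromosome 12 sites named above. The site nearest to Zfp993 (chr4:146603601-146604750), also on chromosome 4, fell more in Daxx-KO than these 4. Its log2 ratio was −2.53 in Daxx-KO and −1.06 in DKO.

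On chromosome 5, the Zfp951 start (chr5:104859201-104860850) had 47.9, 14.9 and 31 scaled reads in Daxx-KO against 125 and 169 in Daxx-WT, and 30.8 and 39.4 in DKO against 122 and 160. Its match near BC005561, whose best match over the whole site was 89.5% identical and so under the limit for a copy, (chr5:104570801-104572750) had 80.9 to 87.5 in Daxx-KO and 88.1 and 126 in DKO, against 252 to 290 in Daxx-WT. On chromosome 17, the block from 13 to 14 Mb held 8 shared lower sites, the most of any block of 1 Mb, and 6 of them had a near-identical copy. A site 13 kb from Unc93a (chr17:13144201-13145500) had the largest fall in Daxx-KO of all shared lower sites, with 13.4, 5.25 and 1.88 scaled reads against 48.4 and 87.1 (log2 ratio −3.13), and −1.75 in DKO. A site of the same block without a copy and without a protein-coding gene start within 100 kb (chr17:13478351-13481150) had 52.3, 15.8 and 76.2 in Daxx-KO against 219 and 194. The sites otherwise lay apart. They fell in 640 blocks of 1 Mb, of which 457 held 1 site and 14 held 4 or more.

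Stem cell genes held the most sites of any list. The lists, and the sites themselves, were chosen with results of these data known, so their counts are a description. A site was assigned to the protein-coding gene it overlapped or, outside genes, to the nearest gene start within 100 kb. In this way 783 sites were assigned to 720 genes. Of the 25 genes of stem cell self-renewal, 6 had a shared lower site, with 11 sites and with Mecom, Meis1, Prdm16 and Mllt3 among them, and 17 of the 25 had any site lower in Daxx-KO. Over all lists, 18 of the 112 genes with a site lower in Daxx-KO had a shared lower one (16.1%), against 9.73% of all 7397 such genes. Of all genes, Prdm16 and Tbxas1 (thromboxane synthase) had 4 sites each, and Mecom, Asap2, Gse1, Ipcef1, Pde4d, Vrk1 and Zfp710 had 3 each.

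Meis1, Prdm16 and Mecom encode transcription factors that maintain stem cells, and Meis1 is a partner of the Hox proteins. The Meis1 site (chr11:18949301-18949950), in an intron, had 33.2 to 34.5 scaled reads in Daxx-KO against 57.5 and 64.2, and 96.5 and 76.8 in DKO against 201 and 185. No knockout library overlapped the Daxx-WT libraries at this site.

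At Prdm16, the site with the highest Daxx-WT mean lay 377 bp from the annotated gene start, outside the gene (chr4:154636951-154637550). It had 60.1, 44.6 and 57.4 scaled reads in Daxx-KO against 83 and 81.4 in Daxx-WT, and a wider DKO site there had 180 and 133 against 396 and 339. The intronic site 50.3 kb from the start (chr4:154586051-154587050) had 32.9 to 41.2 in Daxx-KO against 65.7 and 83.7, and 9.54 and 26.2 in DKO against 46.2 and 53.7. All 4 Prdm16 sites had log2 ratios between −1.04 and −0.60 in Daxx-KO and between −1.64 and −0.70 in DKO. The 3 Mecom sites, all in introns, had log2 ratios of −0.90, −1.32 and −1.22 in Daxx-KO and of −1.5, −1.42 and −1.20 in DKO. The site chr3:30330851-30331450 had 12.3, 15.8 and 16.9 scaled reads in Daxx-KO against 44.7 and 27.5 in Daxx-WT. The Mecom stretch shown above lies beside this site and not in it. The spread between the Daxx-WT libraries was larger than the step from the lower of them to Daxx-KO.

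Mllt3, a stem cell regulator, had 1 site. The Mllt3 site (chr4:87944751-87945600) had 11.4 to 20.7 scaled reads in Daxx-KO against 37.4 and 39, and 10.3 and 12.7 in DKO against 31.1 and 31.8. Vwf, the von Willebrand factor of megakaryocytes and endothelium, and Zfpm1, the Gata1 cofactor Fog1, also had an intronic site each. Their log2 ratios were −0.83 and −0.82 in Daxx-KO and −1.07 and −0.98 in DKO. In all, 3 of 25 erythroid and megakaryocyte genes had a shared lower site.

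**Figure D2:**
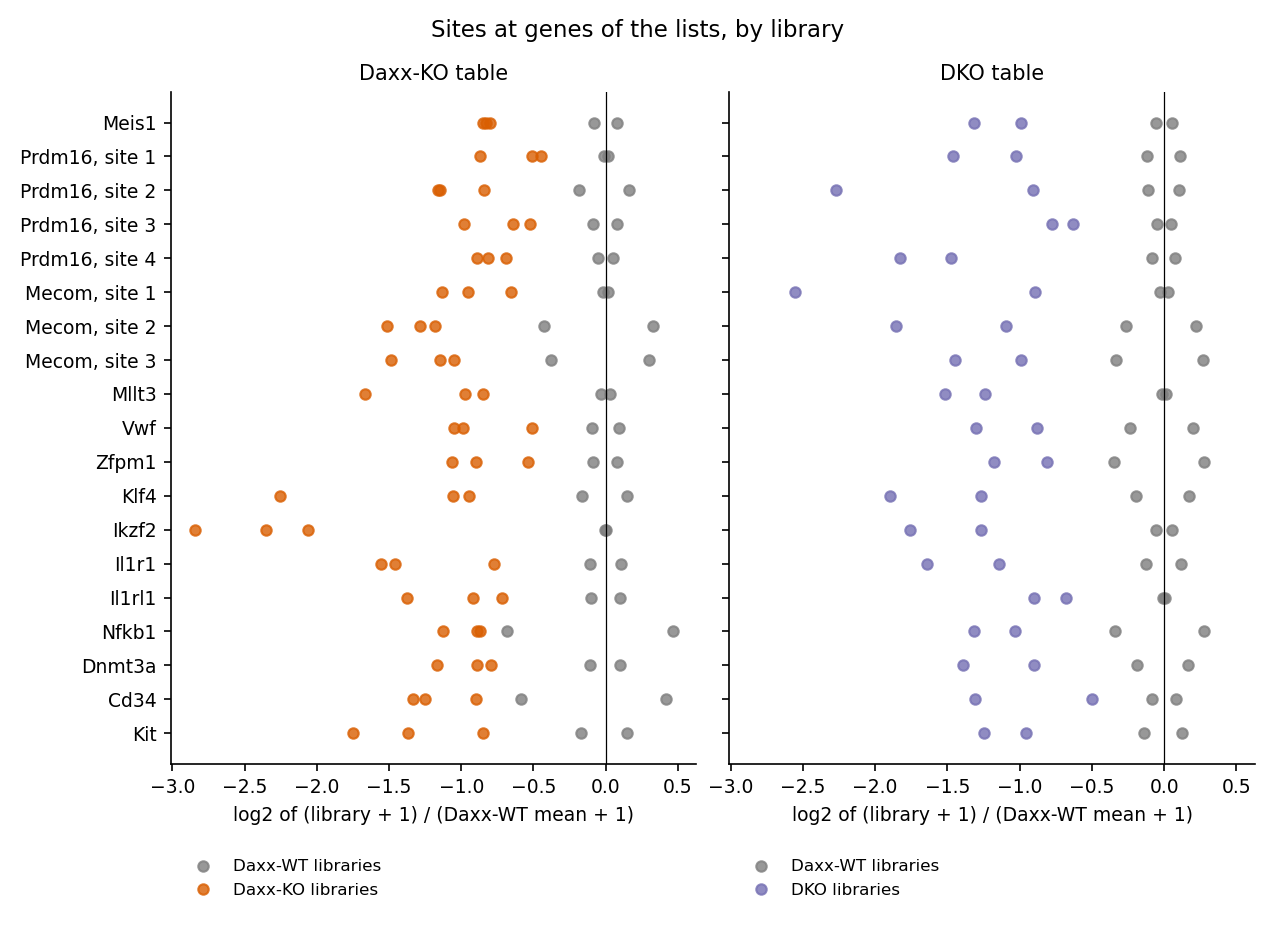
Shared lower sites at genes of the lists that the text names, other than Daxx and Cdk6, with each point 1 library as log2 of its scaled reads over the Daxx-WT mean, both with 1 added, in the Daxx-KO table (left) and the DKO table (right). Knockout libraries lie below the Daxx-WT libraries of the same row, and at Nfkb1 and Cd34 the Daxx-WT libraries of the Daxx-KO table are widely spaced. Sites of 1 gene are ordered by their Daxx-WT mean.

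The other lists had fewer genes with a shared lower site. Of stem cell genes with a site lower in Daxx-KO, 6 of 17 had a shared one. The counts were 3 of 14 for erythroid and megakaryocyte genes, 3 of 14 for inflammatory genes and 2 of 11 for H3.3 and heterochromatin genes. They were 2 of 4 for surface genes used for sorting, 1 of 12 for cell cycle genes and 0 of 4 for lineage markers. Of 26 granulocyte and monocyte genes, Klf4 alone, a factor of monocytes, had a site, 91.7 kb away, with 12.3, 4.37 and 11.3 scaled reads in Daxx-KO against 27.4 and 21.8, and 15 of the 26 had a site lower in Daxx-KO. Of 33 lymphoid genes, Ikzf2, which encodes Helios, alone had a site, in an intron, with 2.82 to 5.57 in Daxx-KO and 6.36 and 9.37 in DKO against 23 to 26.5 in Daxx-WT over both tables, and 17 had a site lower in Daxx-KO. No gene of 33 interferon-stimulated genes and sensors had one, of which 31 matched the annotation and 13 had a site lower in Daxx-KO. The lineage markers had none of 8.

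Of 26 inflammatory genes, 3 had a site. They were Il1r1 and Il1rl1, the receptors of IL-1 and IL-33, and Nfkb1, with log2 ratios of −1.22, −0.98 and −0.96 in Daxx-KO and of −1.37, −0.79 and −1.17 in DKO. The Nfkb1 site rested on Daxx-WT libraries that differed, with 31 and 69.9 scaled reads, against 22.6 to 27.1 in Daxx-KO. Besides Daxx, the list of H3.3 and heterochromatin genes had a site at Dnmt3a, a DNA methyltransferase, with 32.4 to 42.3 scaled reads in Daxx-KO against 79.4 and 68.8. Of 21 cell cycle genes, Cdk6, a kinase of cell cycle entry, had an intronic site with a near-identical copy elsewhere, with log2 ratios of −1.18 and −1.31. Among the 8 surface genes used for sorting, the site 11.6 kb from Cd34 had 26.2 to 35.8 in Daxx-KO against 44.7 and 90.6, and the site 96.1 kb from Kit had 8.47 to 16.7 against 27.4 and 34.4.

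The peak lists of the other populations come from libraries that the rule did not use. Each is 1 list per group, so they carry no spread between libraries. The list of Daxx-WT LT-HSCs with no time label covered 73.6% of the shared lower sites, against 22.3% of all sites of the Daxx-KO table and 8% of the 812 sites that were lower in Daxx-KO and higher in DKO. The Daxx-WT CMP list covered 47%, 19.7% and 13.2% of these sets, and the Daxx-WT GMP list 37.6%, 18.6% and 34.5%. High LT-HSC coverage was not particular to the shared lower sites. The same list covered 86.8% of the 295 sites that were higher in Daxx-KO and lower in DKO and 97.7% of Daxx-WT KLS peaks. Of the 3 Daxx-WT lists, that of LT-HSCs covered the most shared lower sites, and that of GMPs the most sites lower in Daxx-KO and higher in DKO. These shares were not tested. Peaks are found more readily at strong sites, so shares were also set side by side at like levels. At a Daxx-WT mean below 40 scaled reads, the LT-HSC list covered 56.7% of 270 shared lower sites and 6.84% of 10568 other sites lower in Daxx-KO. At 60 to 100 scaled reads it covered 85.2% of 237 and 53.8% of 560, and at 100 or more, 92.3% of 91 and 66.7% of 111. At the same levels the CMP list covered 35.2% and 4.38%, 54% and 41.8%, and 82.4% and 58.6%. The GMP list covered 23% and 5.93%, 44.3% and 45.4%, and 61.5% and 54.1%. Between 40 and 60 scaled reads the shares were 73.9% and 28.3% for LT-HSCs, 41.1% and 18.8% for CMPs and 38.3% and 22.7% for GMPs. The CMP list, like that of LT-HSCs, thus covered more of the shared lower sites at every level.

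Taking the Daxx-WT lists together, 244 of the shared lower sites (27.6%) were in an LT-HSC peak without a CMP or GMP peak, against 7.28% of all sites of the Daxx-KO table, 1.85% of the sites with opposite directions and 5.75% of Daxx-WT KLS peaks. A further 259 (29.3%) were in all 3 lists, against 82.9% of Daxx-WT KLS peaks, and 12 (1.36%) were in the GMP list alone, against 20.8% of the sites with opposite directions. At like Daxx-WT levels, the share in LT-HSC peaks alone was compared with that of other sites lower in Daxx-KO. It was 26.7% against 4.12% below 40 scaled reads, 32.4% against 12.3% at 40 to 60 and 28.7% against 13.2% at 60 to 100. At 100 or more it was 12.1% against 12.6%, so the strongest sites showed no such excess. The median log2 ratio was −1.0 in Daxx-KO and −1.10 in DKO at the sites open in LT-HSCs alone, and −0.90 and −1.02 at the sites in all 3 lists. The Prdm16 site chr4:154586051-154587050 was in an LT-HSC peak without a CMP or GMP peak, the Meis1 site was in LT-HSC and CMP peaks, and the sites at Cd34 and Kit were in CMP and GMP peaks without a Daxx-WT LT-HSC peak.

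**Figure D3:**
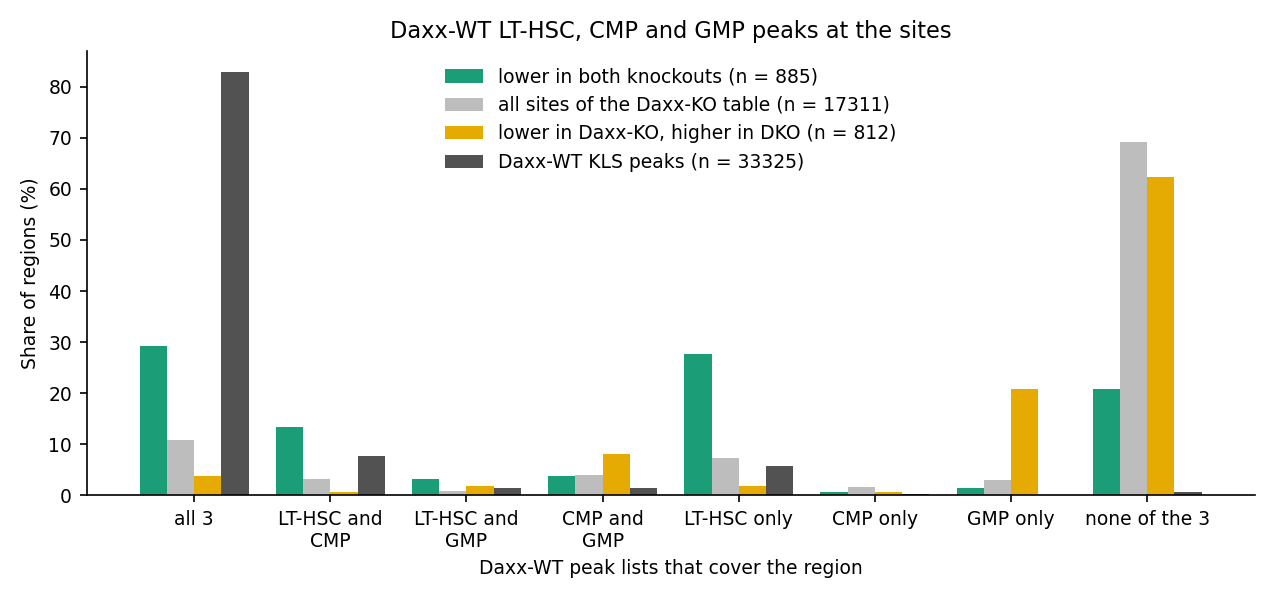
Share of regions covered by each combination of the Daxx-WT LT-HSC, CMP and GMP peak lists without a time label, for 4 sets of regions. The bar for LT-HSC only is 27.6% for shared lower sites and 5.75% for Daxx-WT KLS peaks, and the bar for GMP only is 20.8% for sites lower in Daxx-KO and higher in DKO.

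The Daxx-KO lists of these populations were compared with the Daxx-WT lists at the same sites. Of the 651 shared lower sites in a Daxx-WT LT-HSC peak, 623 (95.7%) were also in a Daxx-KO LT-HSC peak, against 92.5% of all sites of the Daxx-KO table that were in a Daxx-WT LT-HSC peak. For CMPs, 286 of 416 (68.8%) were also in the Daxx-KO list, against 75.4%, and for GMPs, 234 of 333 (70.3%), against 73.6%. The Daxx-KO lists of CMPs and GMPs are shorter (50590 and 49677 peaks) than those of Daxx-WT (66070 and 65306), and the part of list length in these shares was not tested. At 3 d.p.i., the LT-HSC lists covered 45% of the shared lower sites in Daxx-WT and 50.7% in Daxx-KO, against 12% and 15.2% of all sites of the Daxx-KO table. In KLS cells, whose reads chose the sites, 442 of 885 (49.9%) were in a Daxx-WT peak, 42.8% in a Daxx-KO peak and 5.88% in a DKO peak, against 11.2%, 18.1% and 6.9% of all sites of the table, and the DKO list is the shortest with 22156 peaks.

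**Figure D4:**
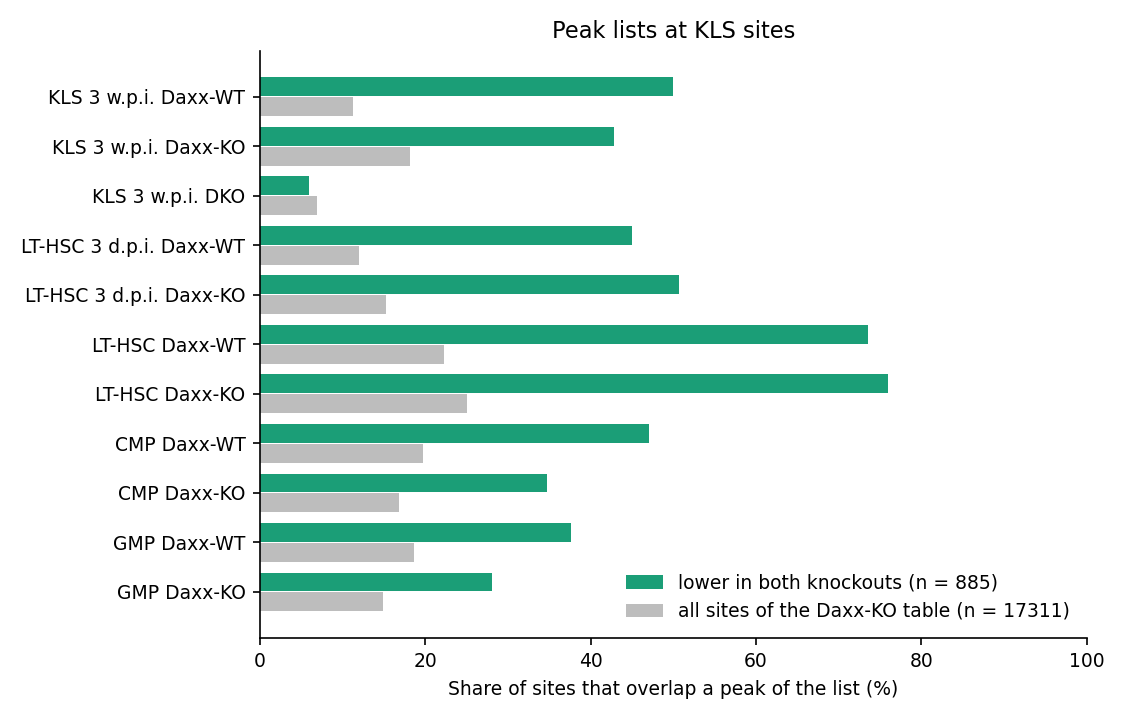
Share of sites that overlap a peak by at least 1 bp in each of the 11 lists, for the 885 shared lower sites and for all 17311 sites of the Daxx-KO table. The longest bars are the 2 LT-HSC lists without a time label, at 73.6% and 76%, and the KLS lists are shown as a description since reads of the same libraries chose the sites.

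The shared lower sites were mostly distal. More than 1000 bp from every transcription start lay 654 of 885 (73.9%), against 81.6% of all sites of the Daxx-KO table and 54.7% of Daxx-WT KLS peaks. A start was covered by 8.59%, an exon of a protein-coding gene by 17.3%, and 55.8% overlapped a protein-coding gene. Their median GC content was 46% and repeats took up 21.8% of their bases on average, close to the 47.1% and 22% of all sites of the table. Of the motifs within 100 bp of the centre, RUNX and E-box were less frequent than in the table, with the table's share outside the 95% Wilson interval of the shared lower sites (12.2 to 16.8% for RUNX and 7.63 to 11.5% for E-box, counting error alone). All sites lower in Daxx-KO had RUNX in 15.6% and the E-box in 10.7%, inside these intervals. The lower shares of these 2 motifs were therefore not particular to the shared lower sites. The Pu.1 motif was found in 2.6% against 2.1%, RUNX in 14.4% against 17.9%, GATA in 10.2% against 9.31%, AP-1 in 5.54% against 6.59%, C/EBP in 9.38% against 8.05%, CTCF core in 3.62% against 2.74% and E-box in 9.38% against 12.3%. In Daxx-WT KLS peaks the Pu.1 motif was found in 5.01% and the CTCF core in 7.51%. A match of letters is not a binding site.

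The only table with libraries that the rule did not use compares Daxx-KO with Daxx-WT LT-HSCs at 3 d.p.i. It lists 11927 sites, selected for a difference in these libraries. Of the shared lower sites, 66 (7.46%) overlapped 67 of them, against 4% of all sites of the Daxx-KO KLS table. An overlap of 1 bp was enough, and 53 shared lower sites overlapped by at least 50% of the shorter interval. Of these 67 LT-HSC sites, 45 (67.2%) were lower in Daxx-KO, against 70.9% of all sites listed. Among LT-HSC sites at KLS sites, 76.4% of 416 were lower at all sites lower in Daxx-KO, 81.8% of 33 at sites lower in Daxx-KO and higher in DKO, 10.3% of 78 at sites higher in both and 53.2% of 699 at all sites of the Daxx-KO table. The share at the shared lower sites was thus near that of all sites listed, and below that of all KLS sites lower in Daxx-KO. These differences were not tested. Every Daxx-KO library was below every Daxx-WT library at 45 of 67, against 70.7% of all sites. In limma on log2(value + 1) with Benjamini-Hochberg adjustment over the 413247 windows tested, 0 of 67 passed an adjusted p of 0.05, and 0% of all sites passed as lower and none as higher. At an unadjusted p below 0.05, 43 of the 67 were lower and 17 higher, against 70.2% of all sites as lower and 25.9% as higher. With each library scaled to its mean number of reads per window, the unadjusted counts at the 67 sites fell to 1 lower and 9 higher. On simulated data, the same test recovered 107 of 200 sites with a log2 change of 1.5. The median log2 ratio at the 67 sites was −0.67. Smaller changes than 1.5 were not simulated, so the recovery at that size is not known.

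Of the shared lower sites in the LT-HSC table, the 8 with the strongest KLS signal were lower there too. Among them were the Daxx promoter and sites with a near-identical copy. The 8 shared lower sites with the highest Daxx-WT mean that overlapped the table covered 9 LT-HSC sites, and at each of them every Daxx-KO library was below every Daxx-WT library. At the Daxx promoter the values were 69.7, 109 and 61.2 scaled reads in Daxx-KO against 201 and 366 in Daxx-WT (limma log2 change −1.79 ± 0.35 SE, unadjusted p = 0.00093, adjusted p = 0.301). At Gm48398 on chromosome 12 they had 172, 220 and 177 against 388 and 502 (−1.22 ± 0.24, adjusted p = 0.301 in limma). At the Zfp951 start they had 63.3, 79.2 and 88.7 against 196 and 158 (−1.19 ± 0.25, adjusted p = 0.301 in limma). The other 6 had log2 ratios of group means between −1.04 and −0.55, and they lay near Zfp991, Zfp982, Zfp986 and Gm13212 and, as a pair, on chromosome 17. Below these 8 shared lower sites the directions were mixed. Next by Daxx-WT mean came sites near Chka (−0.57), at 1110008L16Rik (0.68) and near Zfp36l1 (0.54). The Asap2 start was not listed in LT-HSCs, whereas its copy at Gm16476 was, with 98.2 to 150 in Daxx-KO against 232 and 309.

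Split by copies, 10 of the 11 LT-HSC sites at shared lower sites with a near-identical copy were lower in Daxx-KO (90.9%), and so were 35 of the 56 at the others (62.5%), against 70.9% of all sites. The split was made after the values were seen. Among stem cell and megakaryocyte genes, Vwf alone had an LT-HSC site at its shared lower site, with 37.6, 34.4 and 48.6 scaled reads in Daxx-KO against 83.4 and 70.3 in Daxx-WT. No site of the LT-HSC table overlapped a shared lower site at Mecom, Meis1, Prdm16 or Mllt3. The remaining 22 LT-HSC sites (32.8%) were higher in Daxx-KO, against 29.1% of all sites listed. At each of the 22 every Daxx-KO library was above every Daxx-WT library, as at 28.8% of all sites.

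**Figure D5:**
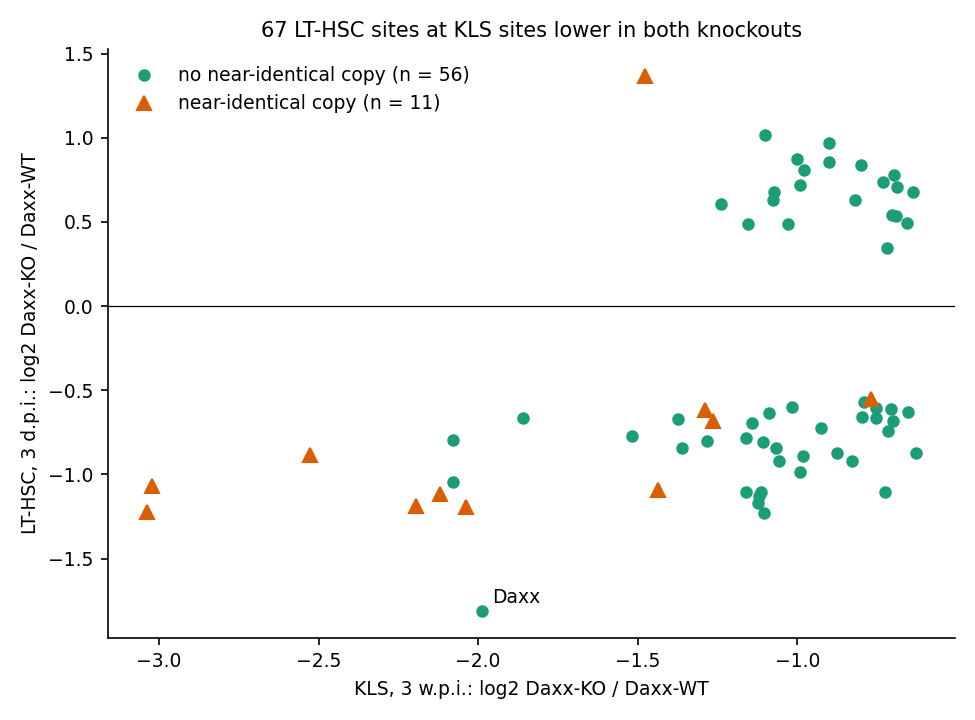
The 67 LT-HSC sites at shared lower sites, with the log2 ratio of Daxx-KO over Daxx-WT in KLS cells at 3 w.p.i. on the horizontal axis and the ratio in 3 d.p.i. LT-HSCs on the vertical axis. Triangles mark sites with a near-identical copy, 10 of 11 of them below 0, and the gap around 0 on the vertical axis arises because the table lists selected sites alone.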

How the data were processed

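ATAC-seq was measured in 24 libraries of 11 groups. Per the submitters' processing notes, CASAVA 1.8.4, cutadapt 1.13, STAR 2.5.3, bedtools and genome build mm10 were used. The handling of reads that match several places is not given in the sources used here. The authors compared groups with diffReps 1.55.6 (file headers: windows of 600 bp, step 50 bp, fragment size 100 bp, negative binomial test, p cutoff of 0.0001), and the deposited tables hold sites past that cutoff alone. The per-library values and their group averages are signal values, reads divided by a normalization constant, as deposited by the authors. The columns with the authors' own fold changes, p-values, adjusted p-values and directions were not used. The authors deposited 1 peak list per group, with fold enrichment as a ratio over background at each summit. Total reads per library are unknown. The headers give 4.21 to 16 reads per window on average, and the number of libraries limits the precision.

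Shared lower sites and gene lists were chosen with earlier results of these data known. The sites named were those over Daxx or Spi1, the 8 with the highest Daxx-WT mean within Daxx-WT KLS peaks, the 6 with the largest smaller fall, the 8 with the highest Daxx-WT mean in the LT-HSC table, up to 3 per gene list by Daxx-WT mean and the sites at the edge of the rule. The sites of Mecom, Meis1 and Mllt3, the split by copies and the sequences of copies and stem cell genes were chosen after values were seen. Genes came from GENCODE M21 and sequences from GRCm38. Copies were found with minimap2 2.31-r1302 (90% identity over 50% of a site). The LT-HSC table was tested with limma 3.58.1 in R 4.3.3 on log2(value + 1), two-sided, with Benjamini-Hochberg adjustment over the 413247 windows named in the header. Since its sites were selected for a difference in the same libraries, unadjusted p-values are small by selection. On simulated data of 11927 sites, 107 of 200 sites with a log2 change of 1.5 were recovered and 0 unchanged sites were called. Smaller changes were not simulated. The study describes the libraries as biological replicates, and the labels do not name the animals. Table columns name libraries by codes that the labels do not link to replicate numbers, and libraries are numbered in table order. Some genes of the lists are not reported here.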

Additional observations from a re-analysis of the deposited data

Results flagged for a closer look

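At 22 of the 67 LT-HSC sites that overlap shared lower sites, every Daxx-KO library was above every Daxx-WT library at 3 d.p.i., whereas in KLS cells at 3 w.p.i. the same regions were lower. This is 32.8% of the 67, close to the 28.8% of all sites in the LT-HSC table, so the count is not particular to the shared lower sites. The opposite direction in the 2 populations drew attention to them, and the difference was not tested. The largest rise, a log2 ratio of 1.37, was at a site on chromosome 12 (shared lower site chr12:3173551-3174150) with a near-identical copy and no protein-coding gene start within 100 kb. Its 3 Daxx-KO LT-HSC values were 94.5, 91.6 and 88.7 scaled reads, against 36.1 and 33.8 in Daxx-WT. The next were a site at Shisa9 (chr16:12019851-12020450), with a log2 ratio of 1.01, and a site at Pkd1 (chr17:24583151-24583800), with 0.97. Pairs of sites were matched on an overlap of at least 1 bp, so some cover mostly different DNA. At Pkd1 the LT-HSC site (chr17:24583751-24584350) and the shared lower site have only a short stretch at their edges in common. In KLS cells the 3 shared lower sites named here had log2 ratios of −1.48, −1.10 and −0.90 in Daxx-KO. They were chosen after their values were seen, and none passed the adjusted threshold in limma (adjusted p between 0.301 and 0.422). The populations differ in time and in sort and may differ in Cre line and inducer, which cannot be told apart here.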

How the results depend on the processing

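Of 65 alternative values, 44 stayed within the spread, interval or count range of the value reported and 21 moved. With each library scaled to its mean reads per window, the median log2 ratio moved to −0.46 in Daxx-KO and to −1.78 in DKO. The median was lower in DKO under both scalings, and the gap between the knockouts depends on the scaling. The LT-HSC calls moved to 15 (6 lower, 9 higher). Adjusted over the listed LT-HSC sites alone, 11428 were called (8360 lower, 3068 higher), a set that was selected on the same libraries. With an overlap of 50% of the shorter interval, the shares of shared lower sites in peaks were 29.7% for Daxx-WT KLS cells, 21.8% and 26.2% for Daxx-WT and Daxx-KO LT-HSCs at 3 d.p.i., 43.6% and 45.3% for LT-HSCs, 21.5% and 13.1% for CMPs and 17.5% and 11.8% for GMPs, and 670 sites met the rule. At more than 2500 bp from every start, the distal share was 63.8%. Within 300 bp of the centre, motif shares, with those of all sites of the Daxx-KO table second, were 6.1% and 5.51% (Pu.1), 35.9% and 43.5% (RUNX), 27.1% and 25.9% (GATA), 16.3% and 17.5% (AP-1), 26.7% and 21.9% (C/EBP), 9.27% and 8.09% (CTCF core) and 26.2% and 31.6% (E-box). Leaving out each library in turn gave 885 to 886 sites, median log2 ratios of −1.03 to −0.93 in Daxx-KO and of −1.19 to −1.03 in DKO, 67.2% lower LT-HSC sites throughout and 0 limma calls throughout. Where this left 1 library in a group, limma assumed that it varied like the other group. Without sites that have a near-identical copy, chosen after seeing the data, the medians were −0.99 and −1.09 and 62.5% of LT-HSC sites were lower. No paired analysis was possible because the table columns carry no replicate numbers.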
